A study of Mus musculus with 10 samples.

Results

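Transcript levels of 40 genes for non-collagen matrix proteins and for the enzymes and inhibitors that remodel the matrix were compared in mouse hearts labelled Prdm16 knockout or control. The genes were taken by symbol, and each of the 40 had 1 row in both deposited expression tables, out of 46786 genes at 3 months and 46977 at 12 months. The rule set no level or difference that a gene had to reach. They comprised 14 glycoproteins, 8 proteoglycans, 5 basement membrane and fibulin genes, 10 proteases and inhibitors, and 3 genes for a crosslinking enzyme and Wnt modulators.

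The groups were Prdm16 knockout hearts at 3 months (3 libraries), control hearts at 3 months (3 libraries), Prdm16 knockout hearts at 12 months (2 libraries) and control hearts at 12 months (2 libraries). Prdm16 encodes a zinc-finger transcriptional regulator. The sources used here give neither the strain nor the construction of the knockout allele nor the tissue in which it was deleted. They do not state that each library came from its own animal, so p-values measure the spread between libraries. Levels are in FPKM, a unit that divides the fragments of a gene by its transcript length and by the size of the library.

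The matrix around heart cells is laid down mainly by fibroblasts. Structural glycoproteins and small leucine-rich proteoglycans bind collagen and set how its fibrils assemble, while laminins, nidogens and perlecan form the basement membrane around each cardiomyocyte. Matrix metalloproteinases and ADAMTS proteases cut these proteins, TIMP proteins inhibit the proteases, and matricellular proteins such as thrombospondins, osteopontin and SPARC signal to cells more than they bear load.

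Several properties of the libraries bear on all values. Cardiomyocyte markers, from Myh6 to Pln, summed to 43017 to 45308 FPKM in 3-month knockout libraries and 33515 to 41410 in controls, and to 74869 to 77864 and 70277 to 70460 at 12 months. Prdm16 itself stood at 1.43, 0.760 and 2.03 FPKM in 3-month knockout libraries and 1.44, 2.23 and 1.61 in controls, and at 4.02 and 3.58 FPKM in 12-month knockout libraries and 6.31 and 5.05 in controls. Exons that the deletion leaves in place can add to such values, so knockout and control below mean the libraries as labelled. At 3 months knockout library 2 stood apart, and control library 2 did so to a lesser degree. The robust SD of log2 ratios over genes of at least 10 FPKM was 0.286 and 0.324 between knockout library 2 and the other knockout libraries, which differed from each other by 0.116. Between control library 2 and the other controls it was 0.287 and 0.229, beside 0.189 between those controls. Control library 2 also had the lowest summed FPKM at that age (516272). At 12 months the controls were close to identical, with a robust SD of 0.0886, against 0.394 between the knockout libraries. Whole reads could be recovered from the low values of the 12-month table, at depths of 26.3 and 21.6 M reads for the knockout libraries and 29.6 and 31.1 M for the controls. Over 1896 genes with 20 to 2000 such reads per pair, 7.01% differed between the controls past a chi-square p of 0.05, and 17.9% of the 280 genes with more than 2000 reads did. They were kept as 2 samples because the chi-square found a difference (summed p = 1.50e-31, across the 1896 genes), and 12-month calls are also given with the controls averaged into 1 sample. The chi-square compares the controls with counting error only, so it cannot show whether they came from separate animals. Between the knockout libraries 45.6% of 1761 genes with 20 to 2000 reads differed past the same p. Xist was at 0.0911 and 0.0240 FPKM in the 12-month knockout libraries and at 33.1 and 31.0 in the controls. At 12 months the genotype thus cannot be told apart from a sex difference, while at 3 months Xist was at most 0.490 in all 6 libraries. Depth at 3 months is unknown.

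The upstream sequences of 3 members are shown because they carry the contrasts described below. Timp4 was the 1 member called at 12 months by the test described below, a call lost in 5 of 12 alternatives. At both ages every knockout library lay above every control for Thbs4 and below every control for Ogn. Neither gene passed the test at either age. Each sequence holds the 250 bases before the transcription start in RefSeq (GRCm38.p6), 5′ to 3′ on the strand of the gene. Timp4 lies at chr6:115252206-115252455 on the minus strand, Thbs4 at chr13:92794819-92795068 on the minus strand, and Ogn at chr13:49607765-49608014 on the plus strand. Capitals mark the GC box GGGCGG in Thbs4 and the TATA box letters TATAAA in Ogn, on either strand.
Timp4: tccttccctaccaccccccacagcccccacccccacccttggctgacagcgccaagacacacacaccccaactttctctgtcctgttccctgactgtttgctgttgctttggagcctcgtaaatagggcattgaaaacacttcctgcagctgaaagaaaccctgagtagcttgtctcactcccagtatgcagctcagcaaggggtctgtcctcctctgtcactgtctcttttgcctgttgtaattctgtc
Thbs4: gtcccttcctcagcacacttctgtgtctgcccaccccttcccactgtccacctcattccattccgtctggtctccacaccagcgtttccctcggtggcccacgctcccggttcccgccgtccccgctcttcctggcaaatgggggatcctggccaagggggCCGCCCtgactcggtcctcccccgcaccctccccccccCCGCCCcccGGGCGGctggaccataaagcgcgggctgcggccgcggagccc
Ogn: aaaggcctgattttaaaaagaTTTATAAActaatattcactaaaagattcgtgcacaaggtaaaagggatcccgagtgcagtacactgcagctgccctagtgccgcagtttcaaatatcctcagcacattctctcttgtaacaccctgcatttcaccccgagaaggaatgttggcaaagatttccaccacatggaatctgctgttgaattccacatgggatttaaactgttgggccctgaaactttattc
In Thbs4 the GC boxes began 89, 51 and 42 bases before the start. In Ogn the TATA letters began 229 and 227 bases before the start, on opposite strands and overlapping. The Timp4 stretch held none of the 4 motifs searched. Over the 29 members listed in the promoter table, GGGCGG occurred in 15 (51.7%), against 32.7% of all 32851 promoters. TATAAA occurred in 8 (27.6%, against 12.4% of all), CCAAT in 10 (34.5%, against 33.8%) and the AP-1 element TGANTCA in 2 (6.90%, against 6.75%). A member counted if any promoter listed for it held the letters, while the background is a share of single promoters. The 2 shares are therefore not in the same unit. A match describes letters only and shows no bound factor.

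At 3 months no member passed the test. The test was limma on log2(FPKM + 1), applied where the mean over the libraries of an age reached 1 FPKM, and a gene was called at a Benjamini-Hochberg adjusted p under 0.05 over all tested genes. Of 39 members tested, 0 were called, where 0.746% of the 12200 tested genes were. An unadjusted limma p under 0.05 was found for 5 members, where 18.2% of all tested genes had one. The untested member was Tnc, the de-adhesive glycoprotein tenascin-C, which averaged 0.173 FPKM in knockout hearts and 0.154 in controls. Knockout and control libraries did not overlap for 6 members, where 24.7% of all tested genes did not overlap. Of these, 4 were higher and 2 lower in knockout hearts, where 20.1% and 4.6% of all tested genes were. The member median difference was 0.11 on the log2 scale, beside 0.088 over all tested genes, and 27 members lay above 0, where 65.0% of all tested genes did. After median-of-ratios rescaling of the libraries the member median was 0.025, beside 0.00017 over all genes, and 21 members lay above 0. Under TPM scaling, described below, these values were 0.030, 0.00074 and 23. In 1 or both rescalings 6 members changed sign. Knockout library 2 often held the top value. It had the highest of the 6 values for 21 of the 39 members, while it was highest for 40.5% of all tested genes. Control library 2 had the lowest of the 6 values for 17 members, while it was lowest for 14.2% of all tested genes. Without knockout replicate 2 the member median was 0.026 and 22 members lay above 0, and 0 were called. Leaving out control replicate 1 gave a median of 0.021, leaving out control replicate 2 gave 0.092 and leaving out control replicate 3 gave 0.27. The 91 genes called over the whole table became 22 without control replicate 2.

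At 12 months 1 member rose. Of 39 members tested, only Timp4 was called, where 0.395% of the 13179 tested genes were (0.167% called higher). An unadjusted limma p under 0.05 was found for 17 members, where 13.6% of all tested genes had one. Tnc was again untested, at 0.228 and 0.454 FPKM in knockout libraries and 0.609 and 0.610 in controls. The groups did not overlap for 30 members, where 50.3% of all tested genes did not overlap. Of these, 16 were higher and 14 lower in knockout hearts, where 27.3% and 23.0% of all tested genes were. The member median was 0.010 and that of all tested genes was 0.011, and 21 members lay above 0, where 51.5% of all tested genes did. On the FPKM scale the knockout libraries were over 2-fold apart in 8 members (9.92% of all tested genes), which were Adamts1, Cilp, Mmp14, Mmp3, Nid2, Spp1, Thbs4 and Timp1. TPM scaling, which gives every library the same sum, moved the median of all tested genes to −0.27 and the member median with it, and 11 members then lay above 0 in place of 21. Members whose difference was above 0 and turned negative under that scaling were Aspn, Comp, Dcn, Fbln1, Postn, Prelp, Sfrp2, Thbs2, Thbs3 and Vcan. The 12-month counts depended on single libraries. With either control left out, or with the controls averaged, 0 members were called. With either knockout replicate left out, many more genes passed, over the whole table as well as among the members. The spread then came from the near-identical controls alone, and the lone knockout library was assumed to vary like them. Those calls are therefore not read as results about the members. Without knockout replicate 1 or 2 the difference was 1.88 or 1.78 for Timp4, −0.83 or −0.79 for Fn1 and 1.18 or 2.22 for Thbs4. For Fbln1 it was −0.32 or 0.34.

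**Figure D1:**
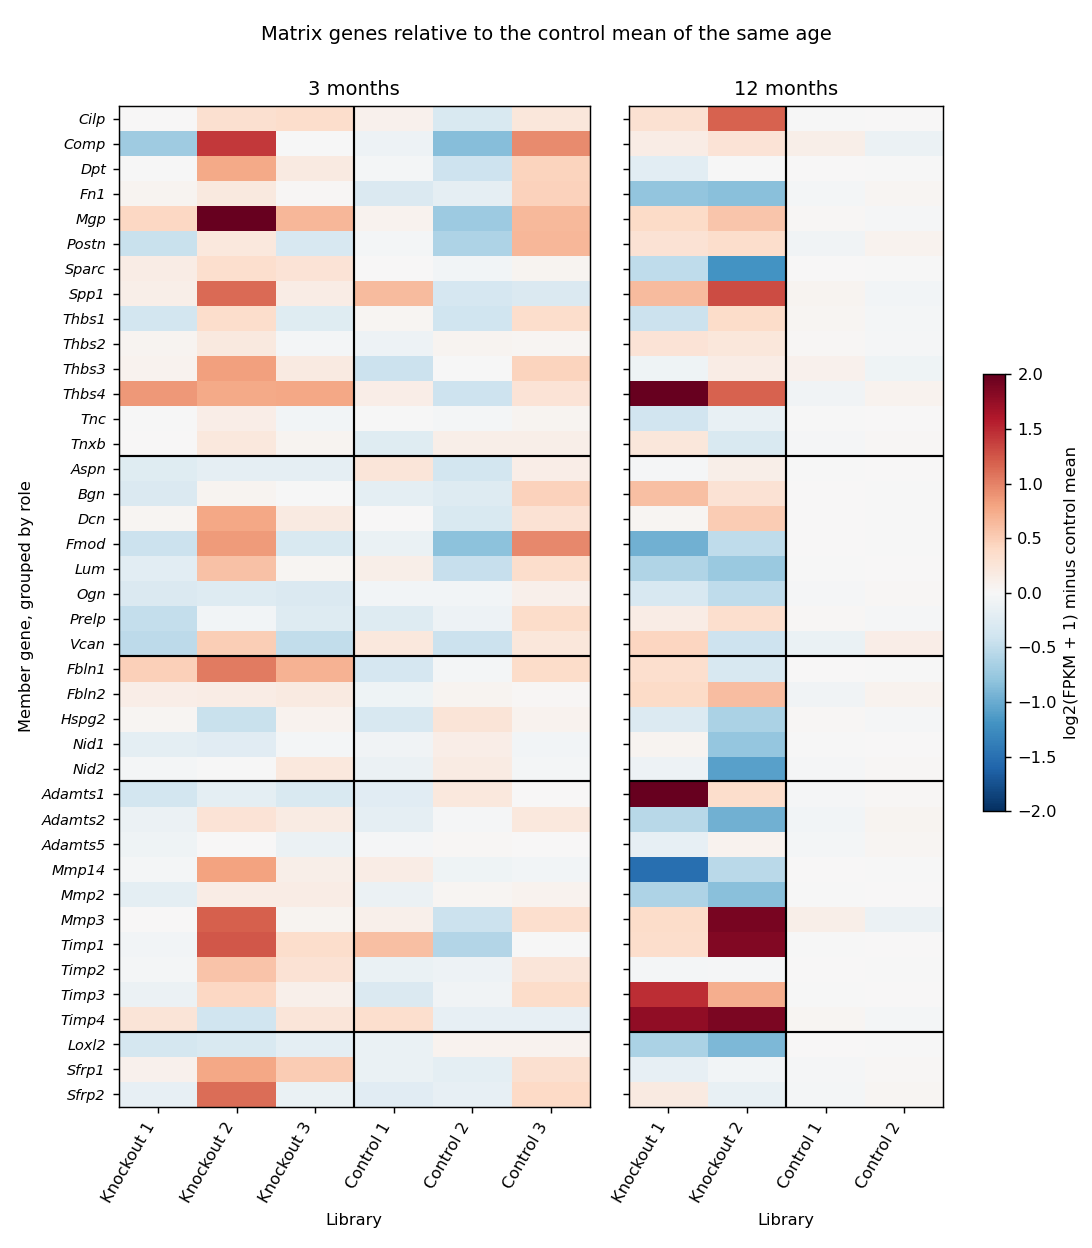
Each cell is the log2(FPKM + 1) value of 1 member in 1 library minus the control mean of the same age, with rows grouped by role and colours capped at 2 in both directions. Knockout library 2 at 3 months carries most of the high values, and the 12-month controls are almost uniform while the 12-month knockout libraries hold both high and low members.

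Among the glycoproteins, 11 of 13 tested members lay above 0 at 3 months and 8 of 13 at 12 months, and none was called at either age. Thbs4, thrombospondin-4, a pentameric glycoprotein known to be induced in stressed hearts, lies on chromosome 13 from 92751590 to 92794818 (minus strand, GRCm38). It stood at 3.23, 2.91 and 2.94 FPKM in 3-month knockout libraries and at 1.55, 0.738 and 1.80 in controls. All 3 knockout values lay above the controls, a log2 difference of 0.80 (SE 0.18), which did not pass the test (limma adjusted p = 0.0987). The 12-month values were 14.7 and 6.65 FPKM in knockout libraries and 2.21 and 2.56 in controls. The groups again did not overlap, with a difference of 1.70 (SE 0.38; limma adjusted p = 0.246), and the knockout libraries differed from each other by more than 2-fold.

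Mgp, matrix Gla protein, an inhibitor of vascular calcification, was the member of highest mean level at 3 months. It stood at 305, 930 and 362 FPKM in 3-month knockout libraries and at 239, 138 and 359 in controls. The groups overlapped, and the difference of 1.04 (SE 0.45; limma adjusted p = 0.268) ran from 0.54 without knockout replicate 2 to 1.36 without control replicate 3. At 12 months Mgp stood at 487 and 544 FPKM in knockout libraries and 377 and 366 in controls, apart and higher by 0.47 (SE 0.12; limma adjusted p = 0.265).

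Sparc, the collagen-binding matricellular protein osteonectin, lay in opposite directions at the 2 ages. At 3 months it stood at 174, 198 and 190 FPKM in knockout libraries and at 156, 150 and 162 in controls, all knockout values above all controls (log2 difference 0.26, SE 0.12; limma adjusted p = 0.300). Its 12-month values were 328 and 203 FPKM in knockout libraries and 468 and 466 in controls, both knockout values below the controls (−0.85, SE 0.26; limma adjusted p = 0.314). Fn1, fibronectin, which forms the provisional matrix on which collagen is laid, showed no separation at 3 months, at 6.36, 7.05 and 6.16 FPKM in knockout libraries and 4.79, 5.21 and 8.75 in controls. At 12 months Fn1 was at 11.3 and 10.97 FPKM in knockout libraries and 19.7 and 20.99 in controls. Both knockout values were below the controls and close to each other, and the test was not passed (−0.81, SE 0.11; limma adjusted p = 0.130).

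Spp1, osteopontin, a cytokine-like glycoprotein of macrophages and injured tissue, was at 1.32 and 2.73 FPKM in 12-month knockout libraries and 0.561 and 0.455 in controls (0.97, SE 0.29; limma adjusted p = 0.306). At 3 months its libraries overlapped, at 14.2 to 29.5 FPKM in knockout hearts and 9.99 to 20.6 in controls. Macrophage markers summed to 323 to 388 FPKM in 12-month knockout libraries and 290 to 299.8 in controls, and their part in the Spp1 value was not tested. Cilp, a cartilage intermediate layer protein made by cardiac fibroblasts, was at 4.81 and 9.66 FPKM in 12-month knockout libraries and 3.71 and 3.75 in controls, with 0.74 (SE 0.32) between the groups. Postn, periostin, a marker of activated fibroblasts, was at 42.3 and 44.2 FPKM in 12-month knockout libraries and 32.8 and 36.5 in controls, apart by 0.31 (SE 0.12; limma adjusted p = 0.373), a difference that was −0.0023 under TPM scaling. At 3 months Postn overlapped, at 5.81 to 9.66 FPKM in knockout hearts and 5.002 to 13.7 in controls. Among the other tested glycoproteins, Comp, Dpt, Thbs1, Thbs2, Thbs3 and Tnxb had log2 differences from −0.083 to 0.36 at 3 months and from −0.11 to 0.26 at 12 months.

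**Figure D2:**
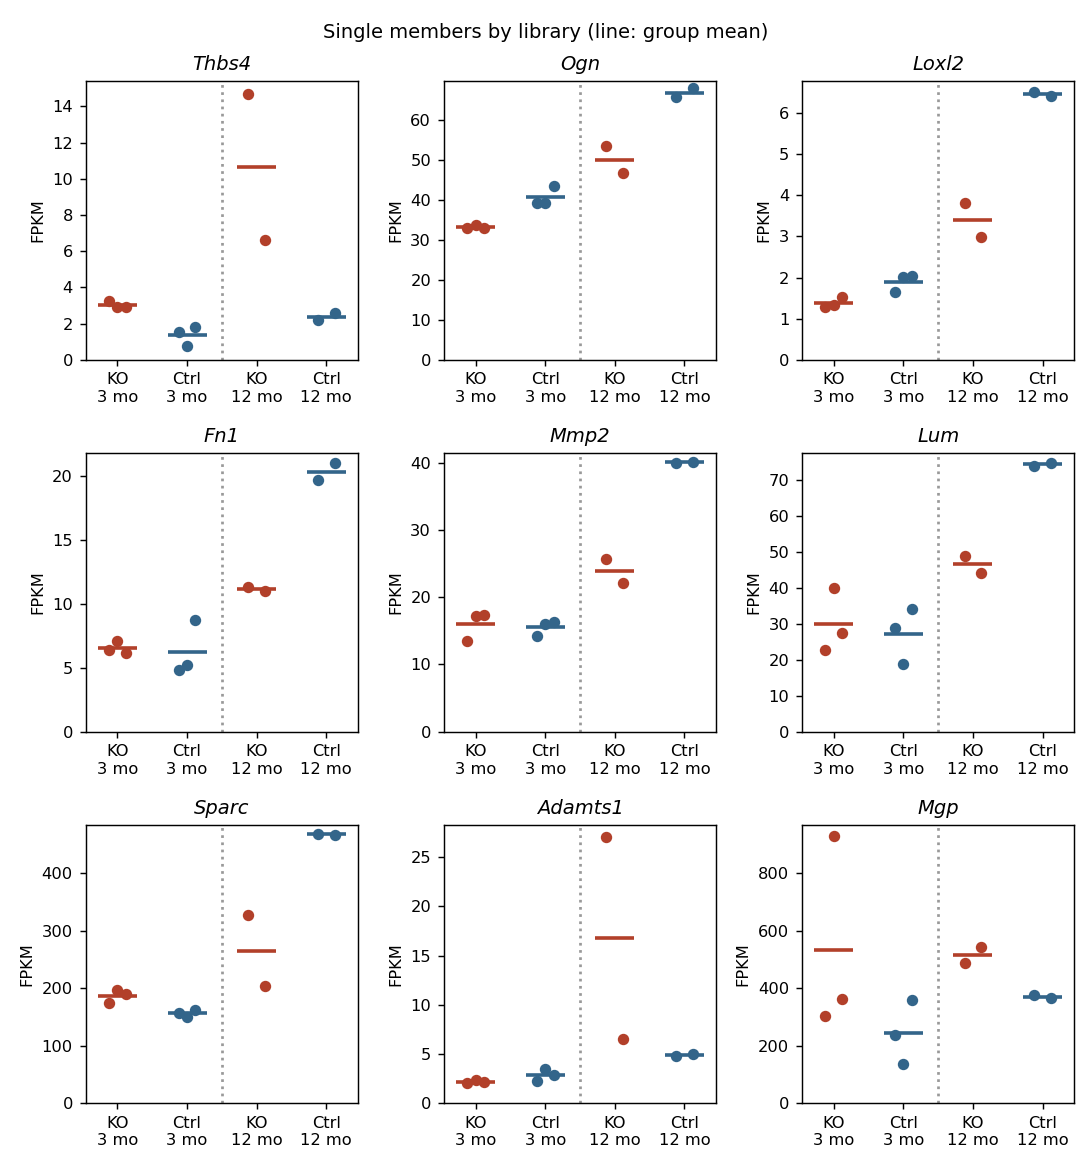
FPKM of 9 members in every library (points), with group means as lines, knockout in red and control in blue within each age. Thbs4 lies above the controls at both ages, Ogn and Loxl2 lie below them at both ages, and Sparc is above at 3 months and below at 12 months.

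Of the 8 proteoglycans, 3 lay above 0 at 3 months and 5 at 12 months, and 0 were called at either age. Ogn, osteoglycin or mimecan, a small leucine-rich proteoglycan of the heart matrix, lies on chromosome 13 from 49608046 to 49624501 (plus strand). At 3 months it was at 33.0, 33.7 and 32.9 FPKM in knockout libraries and 39.1, 39.1 and 43.5 in controls. The groups did not overlap and the difference was small (−0.28, SE 0.11; limma adjusted p = 0.232). The 12-month levels of Ogn were 53.3 and 46.6 FPKM in knockout libraries and 65.6 and 67.9 in controls, again apart and lower (−0.41, SE 0.12; limma adjusted p = 0.303). An exact two-sided permutation test gave 0.1 at 3 months and 0.333 at 12 months for Ogn, the smallest values that 3 against 3 and 2 against 2 libraries allow.

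Lum, lumican, and Fmod, fibromodulin, both of which bind collagen fibrils and limit their width, lay below the controls at 12 months. Lum stood at 48.9 and 44.2 FPKM in 12-month knockout libraries and at 73.9 and 74.7 in controls, a difference of −0.67 (SE 0.11; limma adjusted p = 0.184). Fmod stood at 4.24 and 6.21 FPKM in 12-month knockout libraries and at 9.31 and 9.14 in controls (−0.74, SE 0.19; limma adjusted p = 0.272). At 3 months both overlapped, with Lum at 22.7, 40.03 and 27.3 FPKM in knockout libraries and 28.7, 18.9 and 34.2 in controls. Bgn, biglycan, went the other way at 12 months, at 176 and 141 FPKM in knockout libraries and 117 and 114 in controls (0.45, SE 0.15; limma adjusted p = 0.350). Bgn lies on chromosome X, so its 12-month value stands beside the sex-linked difference between the groups.

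Dcn, decorin, a collagen-binding regulator of growth-factor activity, was the most abundant proteoglycan at both ages. It was at 203, 338 and 224 FPKM in 3-month knockout libraries and 199, 160 and 241 in controls, which overlapped (0.33, SE 0.22; limma adjusted p = 0.452). The 12-month levels of Dcn were 475 and 661 FPKM in knockout libraries and 465 and 462 in controls (0.27, SE 0.20; limma adjusted p = 0.566), a difference that was −0.051 under TPM scaling. Aspn, Prelp and Vcan had log2 differences of −0.26 to −0.17 at 3 months and of 0.0014 to 0.25 at 12 months. Vcan, the large hyaluronan-binding proteoglycan versican, showed how far the 12-month knockout libraries could part, at 7.84 and 3.93 FPKM beside controls at 5.02 and 6.22.

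In the basement membrane and fibulin group 3 of 5 members lay above 0 at 3 months and 2 of 5 at 12 months, with 0 called at either age. Fbln1, fibulin-1, a glycoprotein that links basement membrane and elastic fibres, was at 50.2, 74.4 and 58.1 FPKM in 3-month knockout libraries and 28.2, 34.7 and 46.3 in controls. The groups did not overlap (0.74, SE 0.20; limma adjusted p = 0.146). At 12 months the knockout libraries lay on either side of the controls, at 72.4 and 45.4 FPKM beside 57.0 and 56.8, and the difference of 0.010 (SE 0.25) became −0.32 without knockout replicate 1 and −0.31 under TPM scaling. Fbln2, fibulin-2, was apart and higher at both ages. It was at 25.4, 25.6 and 26.2 FPKM in 3-month knockout libraries and 21.6, 24.0 and 23.3 in controls (0.16, SE 0.11). At 12 months it was at 33.1 and 39.1 FPKM in knockout libraries and 24.0 and 26.3 in controls (0.50, SE 0.14; limma adjusted p = 0.283).

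Hspg2, perlecan, the heparan sulfate proteoglycan of basement membranes, was at 55.1, 39.2 and 56.3 FPKM in 3-month knockout libraries and 42.6, 64.1 and 56.4 in controls. These overlapped, and the difference of −0.11 (SE 0.19) was 0.054 without knockout replicate 2 and 0.015 without control replicate 2. At 12 months Hspg2 was at 47.7 and 37.1 FPKM in knockout libraries and 58.5 and 57.2 in controls, apart and lower (−0.45, SE 0.16; limma adjusted p = 0.359). Nidogens 1 and 2, which join laminin to collagen IV, were at 35.5 and 19.4 FPKM (Nid1) and 7.93 and 3.48 FPKM (Nid2) in 12-month knockout libraries. The controls were at 33.7 and 34.2 FPKM for Nid1 and 8.41 and 8.66 FPKM for Nid2. In each, knockout library 2 was the low one.

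Of the 10 proteases and inhibitors, 8 lay above 0 at 3 months with 0 called, and 5 lay above 0 at 12 months with Timp4 called. Timp4, the TIMP family member with the most heart-restricted expression, lies on chromosome 6 from 115241892 to 115252205 (minus strand). At 12 months it was at 16.6 and 17.9 FPKM in knockout libraries and 4.30 and 3.98 in controls, with means of 17.3 ± 0.920 and 4.14 ± 0.224 (SD, n = 2 each). The knockout libraries were close to each other and lay 4.17-fold above the controls on the FPKM scale. The difference was 1.83 (SE 0.11), with a limma adjusted p of 0.0303. The call was lost with the controls averaged (limma adjusted p = 0.466), without control replicate 1 (0.431) or 2 (0.504), without a filter on low values (0.105) and with the replicate number as a block (0.0595), while the difference stayed between 1.54 and 2.03 in all 12 alternatives. At 3 months Timp4 was at 5.004, 2.79 and 4.94 FPKM in knockout libraries and 5.30, 3.47 and 3.44 in controls. These overlapped, with a difference of 0.037 (SE 0.21; limma adjusted p = 0.946).

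Timp4 lies inside Syn2, the gene of the vesicle protein synapsin-2, which is read from the opposite strand over chromosome 6 from 115134902 to 115282006 and shares 90 of the 5894 exonic bases of Timp4. Syn2 was at 4.95 and 5.83 FPKM in 12-month knockout libraries and 1.56 and 1.53 in controls (1.32, SE 0.14; limma adjusted p = 0.0947). At 3 months Syn2 rose, at 1.77, 3.49 and 2.53 FPKM in knockout libraries and 0.447, 0.697 and 0.793 in controls (1.11, SE 0.19; limma adjusted p = 0.0447). The 3-month libraries were strand-specific and there Timp4 overlapped while Syn2 was higher. The sources used here do not say whether strand was kept at 12 months, so reads of the 2 genes in shared bases cannot be told apart at that age.

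Timp1 and Timp3 likewise lie inside synapsin genes on the opposite strand, Timp1 in Syn1 and Timp3 in Syn3. Timp1 shares 0 of its 888 exonic bases with Syn1, and Timp3 shares 1733 of its 8144 with Syn3. Timp3, which is held in the matrix by its binding to heparan sulfate, was at 115 and 67.5 FPKM in 12-month knockout libraries and 40.5 and 40.7 in controls (1.10, SE 0.28; limma adjusted p = 0.269). Syn3 was at most 0.274 FPKM in any library. Timp1, the inducible member, was at 7.07 and 21.7 FPKM in 12-month knockout libraries and 5.30 and 5.34 in controls (1.10, SE 0.53; limma adjusted p = 0.450). Timp1 lies on chromosome X, and knockout library 2 was the high one. Timp2, the most abundant protease inhibitor at 3 months, was at 61.6 and 62.3 FPKM in 12-month knockout libraries and 63.7 and 63.0 in controls (−0.031, SE 0.10). At 3 months the Timp2 libraries overlapped, at 23.6, 36.8 and 29.9 FPKM in knockout hearts and 22.01, 22.7 and 28.8 in controls (0.27, SE 0.18; limma adjusted p = 0.447). The 4 TIMP genes thus differed in size and library pattern at 12 months, with Timp1, Timp3 and Timp4 apart and higher and Timp2 apart and lower by a difference smaller than its SE.

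**Figure D3:**
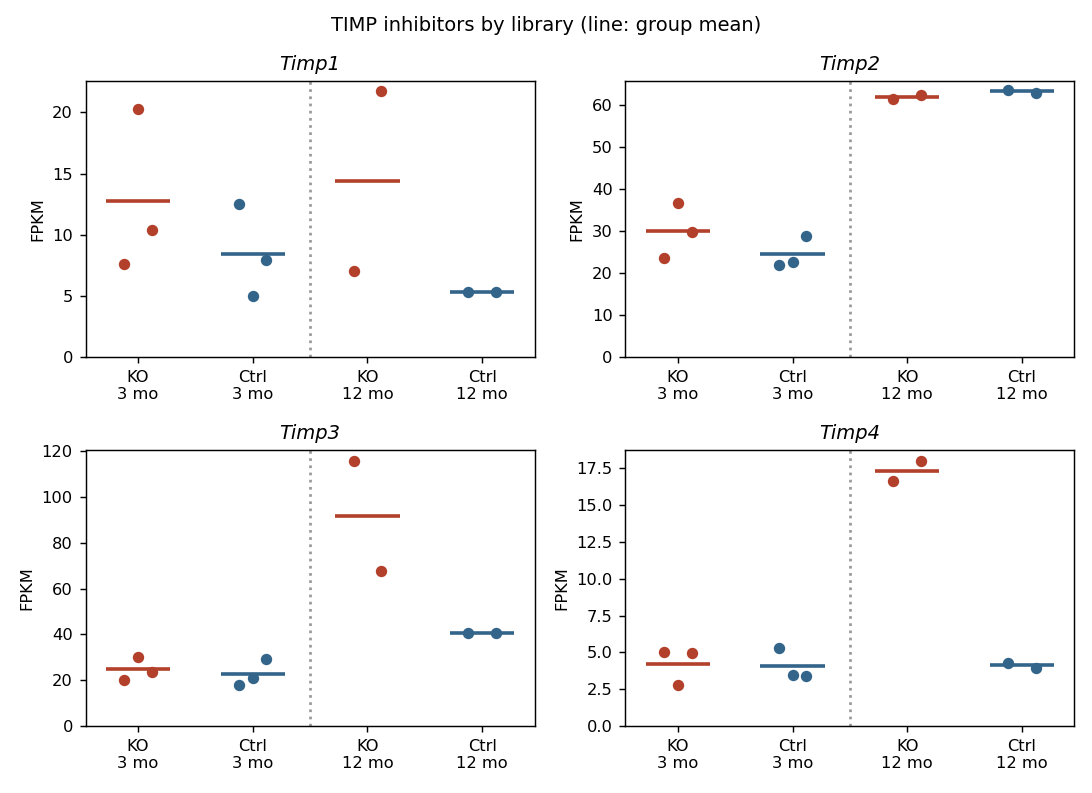
FPKM of the 4 TIMP genes in every library (points), with group means as lines and knockout to the left of control at each age. At 12 months both Timp4 knockout values (16.6 and 17.9) stand far above the controls (4.30 and 3.98), the Timp1 and Timp3 knockout libraries are spread widely, and the Timp2 knockout values (61.6 and 62.3) lie just below the controls (63.7 and 63.0).

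The metalloproteinases did not share 1 direction at 12 months. Mmp2, gelatinase A, was at 25.7 and 22.1 FPKM in 12-month knockout libraries and 40.04 and 40.1 in controls, apart and lower by −0.73 (SE 0.13; limma adjusted p = 0.184). Mmp14, the membrane-bound activator of pro-MMP2, was at 5.03 and 10.8 FPKM in knockout libraries and 16.2 and 16.1 in controls (−1.03, SE 0.35; limma adjusted p = 0.353). Mmp3, stromelysin-1, was at 5.05 and 16.5 FPKM in 12-month knockout libraries and 4.11 and 3.33 in controls (1.13, SE 0.55; limma adjusted p = 0.454), with knockout library 2 the high one. At 3 months all 3 overlapped between the groups, with differences from 0.034 to 0.41.

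Adamts1, a versican-cleaving protease that is induced by inflammation, showed the widest gap between 12-month knockout libraries, at 27.1 and 6.58 FPKM, with controls at 4.85 and 5.01 (1.30, SE 0.66; limma adjusted p = 0.470). At 3 months it was at 2.02, 2.42 and 2.15 FPKM in knockout libraries and 2.32, 3.53 and 2.92 in controls (−0.29, SE 0.14; limma adjusted p = 0.326). Adamts2, the procollagen N-proteinase, was at 5.45 and 3.86 FPKM in 12-month knockout libraries and 8.18 and 8.83 in controls, apart and lower (−0.76, SE 0.18; limma adjusted p = 0.253). Adamts5, an aggrecanase, differed by −0.065 at 3 months and −0.042 at 12 months.

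Loxl2, a lysyl oxidase-like enzyme that crosslinks collagen, was apart and lower at both ages. At 3 months it was at 1.28, 1.34 and 1.52 FPKM in knockout libraries and 1.65, 2.02 and 2.03 in controls (−0.29, SE 0.12; limma adjusted p = 0.270). The 12-month levels of Loxl2 were 3.81 and 2.99 FPKM in knockout libraries and 6.51 and 6.42 in controls (−0.77, SE 0.15; limma adjusted p = 0.211). Sfrp1, a secreted antagonist of Wnt signalling, was at 2.44, 4.53 and 3.59 FPKM in 3-month knockout libraries and 1.96, 1.82 and 3.04 in controls (0.46, SE 0.20; limma adjusted p = 0.276). At 12 months it was at 5.02 and 5.47 FPKM in knockout libraries and 5.67 and 5.83 in controls (−0.11, SE 0.12). Sfrp2, a related Wnt modulator, differed by 0.27 at 3 months and 0.014 at 12 months, with overlapping libraries at both ages.

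**Figure D4:**
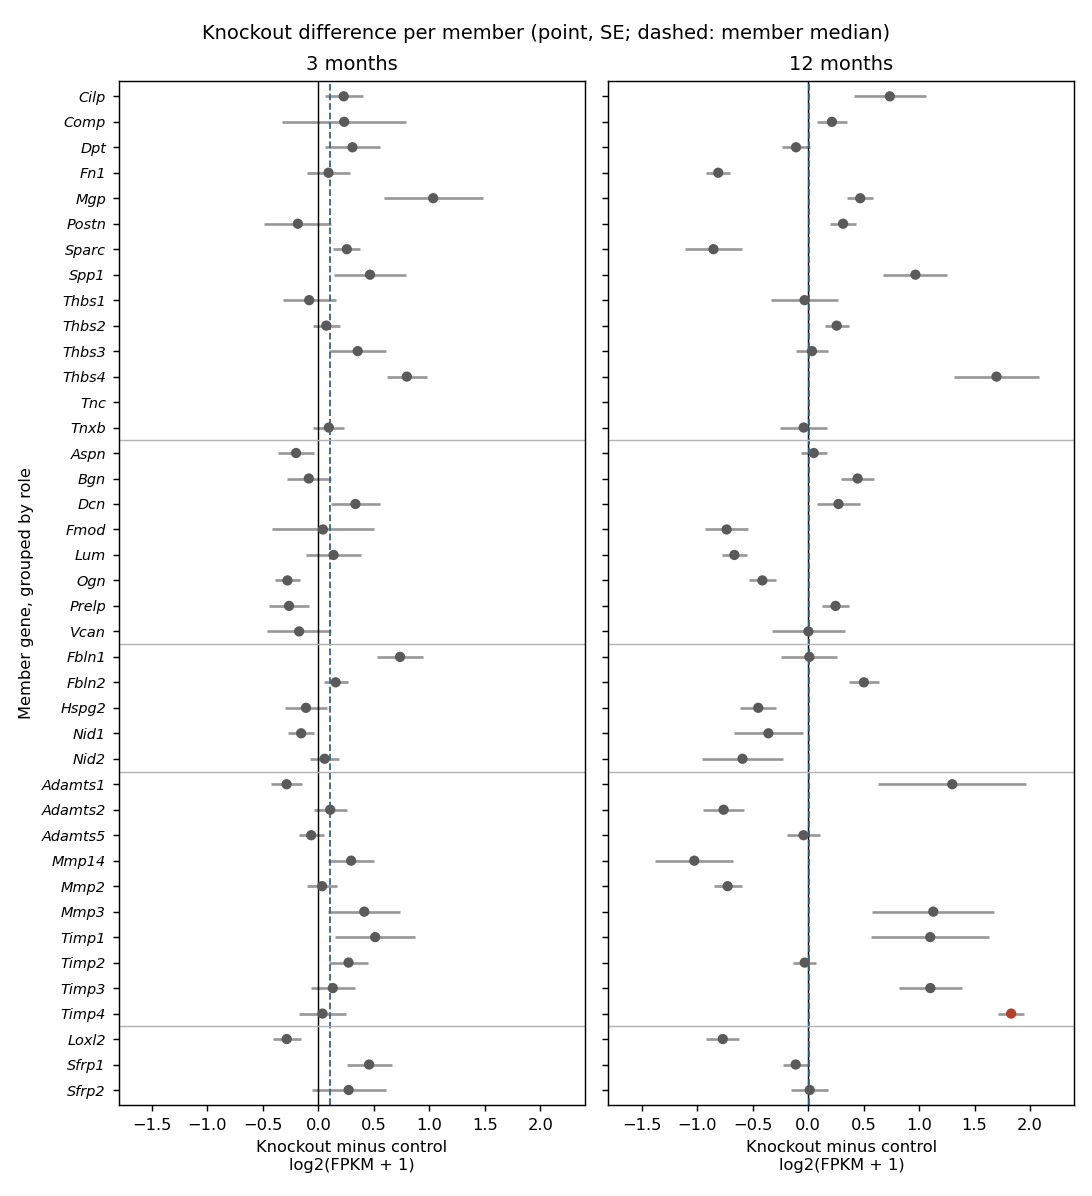
Points are limma differences (knockout minus control) on the log2(FPKM + 1) scale with standard errors as lines, by member and role, and the dashed line is the member median (0.11 at 3 months, 0.010 at 12 months). Timp4 at 12 months, drawn in red, is the single called member, and Tnc was not tested.

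Whether the knockout difference itself changed with age was tested as an interaction over all 10 libraries and the 11580 genes tested at both ages. Of 39 members, 1 was called, where 1.38% of all genes were, and 10 had an unadjusted limma p under 0.05, where 15.3% of all genes did. The called member was Timp4, whose 12-month difference exceeded its 3-month difference by 1.79 (SE 0.31; limma adjusted p = 0.0203). This call was lost with the 12-month controls averaged (limma adjusted p = 0.116), without 12-month control replicate 1 (0.110) or 2 (0.121), under TPM scaling (0.0589) and without the filter (0.0536). Sparc had the next lowest p, at −1.11 (SE 0.26; limma adjusted p = 0.0678), and did not pass. Its difference was −1.45 or −0.77 without 12-month knockout replicate 1 or 2. Mmp2 followed at −0.76 (SE 0.20; limma adjusted p = 0.0941), then Adamts2 at −0.87, Mmp14 at −1.32 and Fn1 at −0.90, none of which passed. Fn1 passed with 3-month control replicate 3 left out, where 118 genes of the whole table did. With either 12-month knockout replicate left out, more members passed, as did more genes over the whole table. The lone 12-month knockout library was then assumed to vary like the other libraries. Those passes are therefore not read as results about the members. The member median was −0.13, beside −0.079 over all genes. Library preparation also differed between the ages, and Xist separated knockout from control only at 12 months. Age, preparation and that sex difference therefore cannot be told apart in this contrast.

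Few members were apart at both ages. Thbs4 and Fbln2 were apart and higher at both ages, as were 7.17% of all genes, and Ogn and Loxl2 were apart and lower at both, as were 1.11%. Sparc was the single member apart in opposite directions, where 5.03% of all genes were. At 12 months 8 members had 1 knockout library above both controls and the other below both, and for 17 the gap between the knockout libraries was larger than the difference between the groups on the log2(FPKM + 1) scale. The share of all tested genes with either pattern was not counted. These counts therefore cannot show whether the members differ from other genes in this respect.

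Summed markers of cell types that a dissected heart can hold stood beside these values. In bulk tissue, fewer cells of a type and less RNA per cell cannot be told apart. At 12 months 10 of 12 fibroblast markers lay below 0, with sums of 1105 to 1227 FPKM in knockout libraries and 1498 to 1511 in controls, and 4 of 6 tested activated fibroblast markers lay below 0, with sums of 114 to 135 and 224 to 225. None of these markers was called. Col3a1, a fibrillar collagen of fibroblasts, was at 140 and 90.5 FPKM in knockout libraries and 402 and 392 in controls (−1.81, SE 0.24; limma adjusted p = 0.130). It is 1 of the 12 fibroblast markers, and its values make up most of the gap between the fibroblast sums. Adipocyte markers summed to 11.1 to 13.5 FPKM in 12-month knockout libraries and 71.5 to 73.9 in controls, with Car3 and Plin1 called lower. Epicardial markers summed to 6.90 to 25.0 and 34.8 to 36.1 FPKM, and 5 of 5 tested erythroid markers were called lower (1956 to 2157 against 10647 to 10783 FPKM). At 3 months fibroblast marker sums overlapped (541 to 899 against 459 to 634 FPKM), erythroid markers were higher (5 of 5 called, 2082 to 3111 against 818 to 1113 FPKM) and atrial markers summed to 12339 to 28726 FPKM in knockout libraries and 721 to 6218 in controls. Valve and tendon-like markers summed to 25.5 to 53.5 FPKM in 3-month knockout libraries and 19.3 to 33.4 in controls. Lymphocyte and neutrophil markers summed to 37.1 to 63.9 FPKM in 3-month knockout libraries and 13.6 to 17.8 in controls, and airway markers to 1.43 to 2.39 and 14.9 to 39.5, with Foxn1 and Sftpc listed at 0 in all 6 libraries. Of the markers tested at 3 months, 3 of 6 lymphocyte and neutrophil and 1 of 8 atrial markers were called higher. Of the airway markers 2 of 4 were called lower. At 12 months atrial markers summed to 13656 to 15919 FPKM in knockout libraries and 6205 to 6366 in controls, although only 3 of the 8 genes lay above 0. Lymphocyte and neutrophil markers summed to 8.39 and 86.0 FPKM in the 12-month knockout libraries and 27.2 and 26.8 in controls. Endothelial markers summed to 949 to 1625 FPKM in 12-month knockout libraries and 851 to 853 in controls, although only 2 of the 8 genes lay above 0. The part of each of these marker groups in the member values was not tested.

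**Figure D5:**
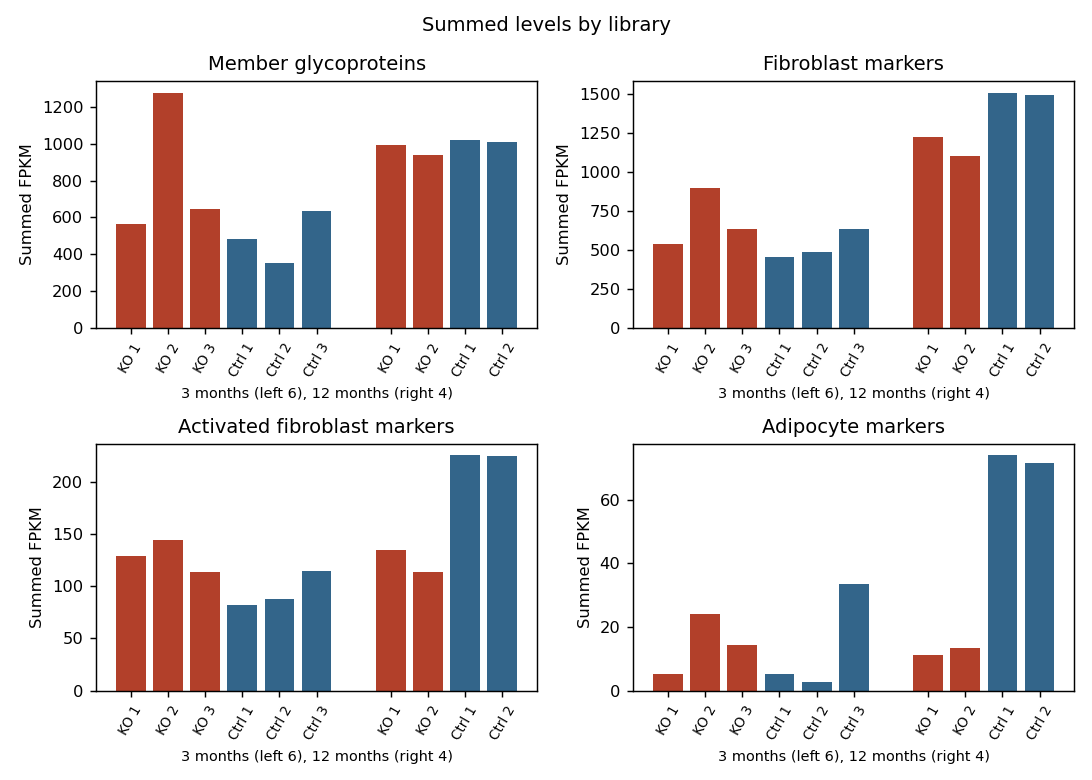
Bars are summed FPKM per library for the member glycoproteins and for 3 marker lists, knockout in red and control in blue, 3 months on the left and 12 months on the right. Knockout library 2 is highest for glycoproteins and fibroblast markers at 3 months, and activated fibroblast and adipocyte markers are low in both 12-month knockout libraries.

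Other genes of the matrix were counted from lists that exclude the 40 members. Among other matrix glycoproteins and proteoglycans, 0 of 25 tested were called at 3 months and 1 of 30 at 12 months. The called gene was Cilp2, a relative of Cilp, which fell to 1.57 and 1.58 FPKM in 12-month knockout libraries, against 6.82 and 6.57 in controls (−1.58, SE 0.12; limma adjusted p = 0.0498). With the controls averaged, 0 genes of the whole table were called at 12 months. Podn, podocan, another small leucine-rich proteoglycan, was at 14.4, 20.5 and 20.3 FPKM in 3-month knockout libraries and 3.24, 3.59 and 11.6 in controls (1.62, SE 0.37), which did not pass. Cyr61 and Wisp2, matricellular genes of the CCN family, were apart and higher at 12 months by 0.99 and 1.96 without passing.

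Laminin subunits gave 0 called of 8 at each age, with medians of 0.040 at 3 months and −0.41 at 12 months. Lama4, of vessel basement membranes, was at 30.7, 36.3 and 26.9 FPKM in 3-month knockout libraries and 19.5, 21.5 and 20.2 in controls (0.58, SE 0.13), which did not pass the test. Other proteases and inhibitors gave 0 called of 33 at 3 months and 0 of 34 at 12 months. Crosslinking enzymes and Wnt modulators gave 0 called of 11 at each age, with Dkk3, a Dickkopf-family protein, at 68.0 and 76.4 FPKM in 12-month knockout libraries and 33.6 and 33.4 in controls (1.08, SE 0.12; limma adjusted p = 0.0947). Matrix receptors gave 0 called of 25 at 3 months and 0 of 26 at 12 months, with 18 above 0 at 3 months and 8 at 12 months. Of these, the glypican Gpc1 was higher by 0.59 and the integrin subunit Itgb6 lower by −1.11 at 12 months, and neither passed.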

How the data were processed

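Hearts were sequenced as RNA libraries, strand-specific and poly(A)-selected at 3 months and prepared at another institute at 12 months, per the labels' protocols. The deposited values are FPKM made by the authors, in 1 table per age and without counts; per the submitters' processing notes, the tools were Cufflinks 2.1.1, STAR 2.5.1b, TopHat2 2.1.0 and FastQC, with GRCm38 and mm10 as builds and no roles given. From its name, the 12-month table had outliers removed by a step that is not described.

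At 3 months, 69 repeated identifiers were summed. Symbols and coordinates came from GENCODE M21 (GRCm38), and upstream sequences from RefSeq (GRCm38.p6), which held 29 of the 40 members. Genes whose mean reached 1 FPKM at an age were tested on log2(FPKM + 1), a scale that understates changes of low genes, with limma 3.58.1 in R 4.3.3 (trend, empirical Bayes, Benjamini-Hochberg over all tested genes), knockout minus control within each table. The difference between ages was an interaction over 4 group means. The fit was run on simulated data in which both groups of a gene had the same spread. That run cannot show how the test behaves with the near-identical 12-month controls. Per library, FPKM added up to 516272 to 718787 (3 months) and 890181 to 1171104 (12 months). Whole-read steps at 12 months were found for 86.8% to 88.2% of low values within 0.05 of a whole read.

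Values in every library are given for members past an adjusted p of 0.05, for the 8 members of lowest p per age and for the most abundant member of each role, and other members, markers and pathway lists by counts with genes of lowest p, of which 2 are not reported here. Further members and markers were given in full after their values were seen. The members and lists were chosen with earlier results of these data known. Replicate numbers did not pair the libraries, so no block entered the test.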

Additional observations from a re-analysis of the deposited data

Results flagged for a closer look

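For Timp4, the inhibitor of matrix metalloproteinases, the difference between knockout and control hearts was larger at 12 than at 3 months by 1.79 on the log2(FPKM + 1) scale, and this test of the difference itself passed (limma, Benjamini-Hochberg adjusted p = 0.0203), though not with the 12-month controls averaged (limma adjusted p = 0.116). Sparc was higher in every knockout library than in every control at 3 months and lower in every knockout library at 12 months. Its difference at 12 months minus that at 3 months was −1.11, and this did not pass (limma adjusted p = 0.0678). For both genes, age cannot be told apart from library preparation or from the sex difference between the 12-month groups.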

How the results depend on the processing

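Members called at 3 months were 0 in all 13 alternatives. The 91 genes called at 3 months over the whole table became 10 without a filter on low values, 59 after median-of-ratios rescaling (71.2% of them higher, in place of 83.5%) and 29 with the replicate number as a block, and 22 to 81 with 1 library left out. The 1 member called at 12 months became 0 without a filter, with the replicate block and with the controls averaged, and 0 to 25 with 1 library left out. The 52 genes called at 12 months became 17 without a filter and 0 with averaged controls (414 genes at an unadjusted limma p under 0.05), and 0 to 4409 with 1 library left out. Under TPM rescaling 29.8% of the 12-month calls were higher, in place of 42.3%. The 12-month member median was 0.022 at a minimum of 5 FPKM, −0.27 under TPM rescaling and 0.0052 to 0.0748 with 1 library left out. For the difference between ages, the 1 member called became 0 without a filter, at a minimum of 5 FPKM (Timp4 was then not tested), under TPM rescaling and with averaged controls, and 0 to 5 with 1 library left out. The 160 genes called there became 55 with the replicate block and 40 with averaged controls, and 40 to 787 with 1 library left out.

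Among the 31 member results, only those of Timp4 had a call to lose. It was lost in 5 of 12 alternatives at 12 months and in 5 of 17 for the difference between ages. Of 423 values for the 31 results, 387 kept direction and stayed called or not called, 10 lost the call, 21 gained it and 5 turned round. The last were Hspg2 at 3 months (0.015 without control replicate 2, 0.054 without knockout replicate 2), Fbln1 at 12 months (−0.31 under TPM rescaling, −0.32 to 0.34 with 1 library left out, the lowest without knockout replicate 1) and Dcn at 12 months (−0.051 under TPM rescaling). The cause was not tested. Averaging the controls was chosen after seeing the data. Libraries of the same number did not deviate together at 3 months (correlations of −0.12, −0.46 and −0.14). The 12-month correlation was −0.0063. It cannot show whether libraries were paired, because 2 libraries a group deviate as mirror images and the controls were near-identical. Depth at 3 months is unknown, and 2 libraries a group limit every 12-month value.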
